A study of Mus musculus with 12 samples.

Results

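Cluster 20 is one of 27 groups of cells that the authors' annotation assigned in single-cell RNA-seq of mouse tumors, and it held 3411 of the 93126 annotated cells (3.66%). Its members were chosen by that cluster number alone, and its working label is tumor or stroma, the latter being the non-tumor tissue in which a tumor grows. The tumors were grown from MC38, a mouse colon carcinoma line of C57BL/6 origin, injected under the skin of female mice aged 8–12 weeks that were C57BL/6J (B6 below) or the first-generation offspring of C57BL/6J and one of 7 Collaborative Cross strains, which are inbred lines with mixed founder genomes: C57BL/6J x CC001/UncJ, CC002/UncJ, CC007/UncJ, CC036/UncJ, CC075/UncJ, CC079/TauUncJ or CC080/TauUncJ. At a volume of 75–110 mm3 each mouse was given 200 µg of an antibody against the checkpoint receptor PD-1 (aPD1) or of an isotype control antibody, and tumors were collected 48 h later, frozen, thawed and sorted to 90% CD45+ and 10% CD45- cells. Every host thus carried the same injected line and at least one B6 genome, and every cell share below also depends on the sort gate. Each of 12 libraries (pools) held 4 tumors marked with hashtag antibodies, the isotype and the aPD1 tumor of 2 strains, which gives 48 tumors, 24 for each antibody. CC001, CC002 and CC075 were classed as responder strains and CC036, CC079 and CC080 as non-responder strains by the study, a class that the sample labels do not carry, and B6 and CC007 have no class here.

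The libraries held 4482–9677 annotated cells and 22854106–48824724 UMIs (unique molecular identifiers, each counting 1 captured RNA molecule). Levels are given as CPM, the UMIs of a gene per 1000000 UMIs of the cells summed. Cluster 20 had 1–196 cells in a tumor (median 66), and 41 of 48 tumors had at least 20. Of its cells, 355 (10.4%) carried a barcode sequence that was also found in another pool, against 10.9% of all cells. In macrophages, 15 genes whose level differs with the host allele placed 48 of 48 tumors nearest to the other tumors of the labelled strain, although those genes were picked with the labels known. A single tumor, CC080 aPD1 of pool 4, had Xist, the RNA that silences an X chromosome in female cells, at 4.26 CPM in macrophages, where the other tumors had 317–731, and had 0 UMIs of the 3 Y-linked genes in the table among 5395653 macrophage UMIs. That tumor carries the same mouse identifier as the CC080 isotype tumor of pool 3. Tests of gene levels and of the share of cluster 20 were therefore repeated without both, while that of its share of cycling cells was not. Values are given where they changed a call or a sign.

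Epithelial cells and many carcinomas are known by cytokeratins and the adhesion molecule Epcam, fibroblasts by fibrillar collagens and small matrix proteoglycans, and pericytes by contractile genes. Tumor cells show peptides to CD8+ T cells on MHC class I molecules, whose genes interferon gamma raises, and aPD1 acts by releasing such T cells from inhibition. In mice the class Ia genes are H2-K1 and H2-D1, and the Qa genes of the same locus, H2-Q7 among them, encode class Ib molecules.

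The cells of cluster 20 spread over a wide range of depth, and their RNA content changed along it. They held from 495 to 56384 UMIs, with a median of 3068, where the median was 4199.5 in cluster 22 (582 cells, rich in fibroblast, pericyte and endothelial markers), 1532 in cluster 25 (249 cells) and 3481 in the macrophage clusters. Cells of at least 5000 UMIs, called deep cells below, numbered 1397 (40.96%) and held 86.6% of the cluster's UMIs, at a median of 14917 UMIs and 3619 genes. Cells under 2000 UMIs, called shallow cells, numbered 1334 (39.1%) and held 5.59% of the UMIs, at a median of 1071.5 UMIs and 647 genes, and 680 cells lay between. Both limits were set after the values were seen, and 99 cells lay within 10% of the upper limit and 198 within 10% of the lower. Genes of ribosomal proteins took 31.4% of the UMIs of deep cells, 10.6% of those of shallow cells, 16.97% in cluster 22 and 17.99% in macrophages.

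The mix of deep and shallow cells differed between pools and host strains. Deep cells made up 87.7% of cluster 20 in pool 1, 72.8% in pool 2, 70.6% in pool 3, 78.8% in pool 4 and 78.2% in pool 12. They made up 27.03% in pool 5, 41.05% in pool 6 and 40.0% in pool 7, and between 3.32% and 17.4% in pools 8–11. Macrophage medians of the pools did not follow this order, since pool 6 was lowest at 1879 UMIs and pool 7 highest at 5150. By host strain the deep share was 80.9% in CC001, 59.2% in CC079, 54.6% in CC002, 49.1% in CC080, 37.3% in CC007, 22.6% in B6, 15.8% in CC036 and 5.47% in CC075. All CC036 and CC075 tumors came from pools 8–11, so their deep share in other pools is not known. Pool 8 also held B6 and pool 11 also held CC080. In pool 8, deep cells were 10 of 76 (aPD1) and 0 of 29 (isotype) in CC036, and 2 of 101 and 7 of 99 in B6. In pool 11 they were 0 of 100 (aPD1) and 7 of 66 (isotype) in CC075, and 19 of 62 and 8 of 101 in CC080. In other strains the deep share differed between pools of the same strain. Of the cluster 20 cells of B6 aPD1 tumors, 28 of 54 were deep in pool 6, 39 of 57 in pool 7 and 2 of 101 in pool 8. Those of CC080 isotype tumors had 105 of 134 in pool 3 and 8 of 101 in pool 11.

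**Figure D1:**
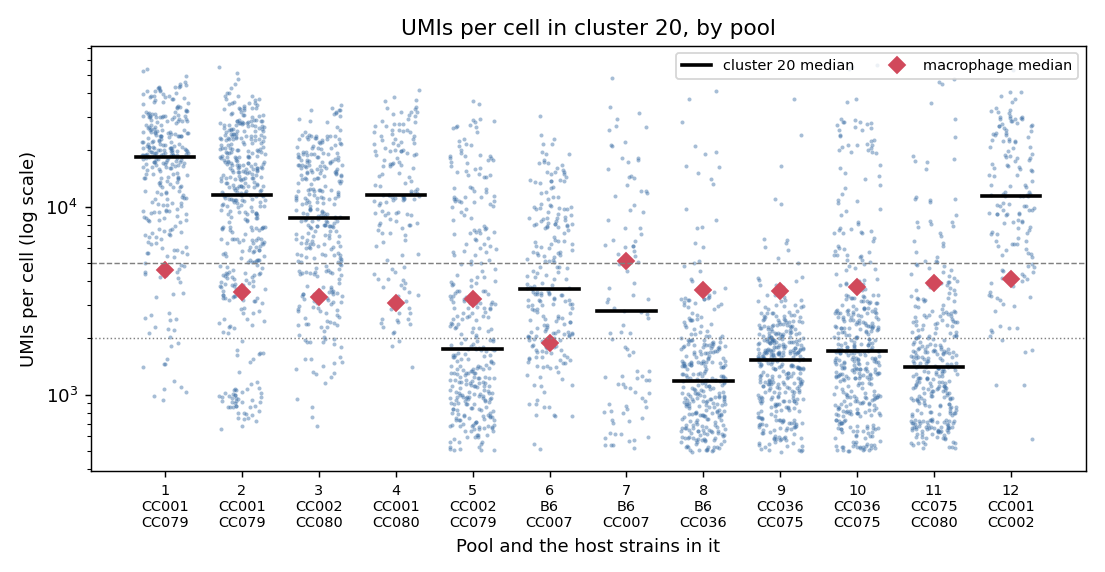
UMIs per cell (log scale) of the cluster 20 cells in each of the 12 pools, 1 point a cell, with the cluster's median as a black line, the macrophage median as a red diamond, and 5000 and 2000 UMIs as dashed and dotted lines. The cluster's median ran from 1184 UMIs in pool 8 to 18406 in pool 1, while macrophage medians lay between 1879 and 5150.

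The genes that set cluster 20 apart were rich in deep cells. Ranked by level over the mean of the other 26 clusters, with at least 50 CPM in cluster 20, the leading 20 genes were Gm45589 (126-fold), Rhox5 (121-fold), Kirrel3, Tafa1, Gm11033, Cntn3, Cst6, Robo2, Tenm3, Hmga2, Zfpm2, Epha7, Gm30835, 3110039M20Rik, Ankrd1, Csmd3, Rorb, Shisal2b, Galntl6 and Fosl1, and as these genes belong to the clustered cells the folds are a description. Rhox5, an X-linked homeobox gene of the reproductive tract, was at 391 CPM in deep cells, 58.1 in shallow cells, 3.08 in macrophages and 0.961 in cluster 22. Hmga2, an architectural chromatin protein of embryonic and transformed cells, was at 170 in deep cells, 12.5 in shallow cells and 2.24 in cluster 22. Shisal2b, which the study used as a marker of MC38 cells, was at 106 in deep cells and 17.2 in shallow cells, with 0 UMIs in clusters 22 and 25.

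Across the 25 tumors with at least 10 deep cells, these genes were found throughout. Levels of 18 of the 20 genes were above 0 in all 25 tumors, and Csmd3 and Galntl6 were above 0 in 24. Rhox5 ranged from 168 to 468 CPM (median 379) in the deep cells of a tumor, Hmga2 from 76.7 to 434 (median 173) and Shisal2b from 10.52 to 241 (median 95.6). Cst6, a cysteine protease inhibitor, ranged from 112 to 298 (median 182). The tumor lowest in Shisal2b was the CC080 aPD1 tumor of pool 4, with 2 UMIs.

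Going from the shallowest to the deepest cells, these genes had higher and those of immune cells lower levels, as 9 ranges of UMIs per cell show. From cells of up to 700 UMIs to cells of 20000 or more, Rhox5 went from 19.3 to 413 CPM, Def8, a regulator of lysosome positioning, from 77.1 to 1689, and Lgals1, which encodes galectin-1, from 642 to 10271. Over the same ranges Ptprc, which encodes CD45, went from 1201 to 5.07, and Lyz2, a lysozyme of myeloid cells, from 2004 to 49.0. Xist, which is not confined to immune cells (532 in cluster 22), went from 1073 to 7.08. The nuclear RNA Malat1 went from 20982 to 2521. Among the genes examined in this way, Col3a1, a fibrillar collagen, had its highest level, 1344, in the range that starts at 5000 UMIs, as did Dcn, a matrix proteoglycan, at 580.

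**Figure D2:**
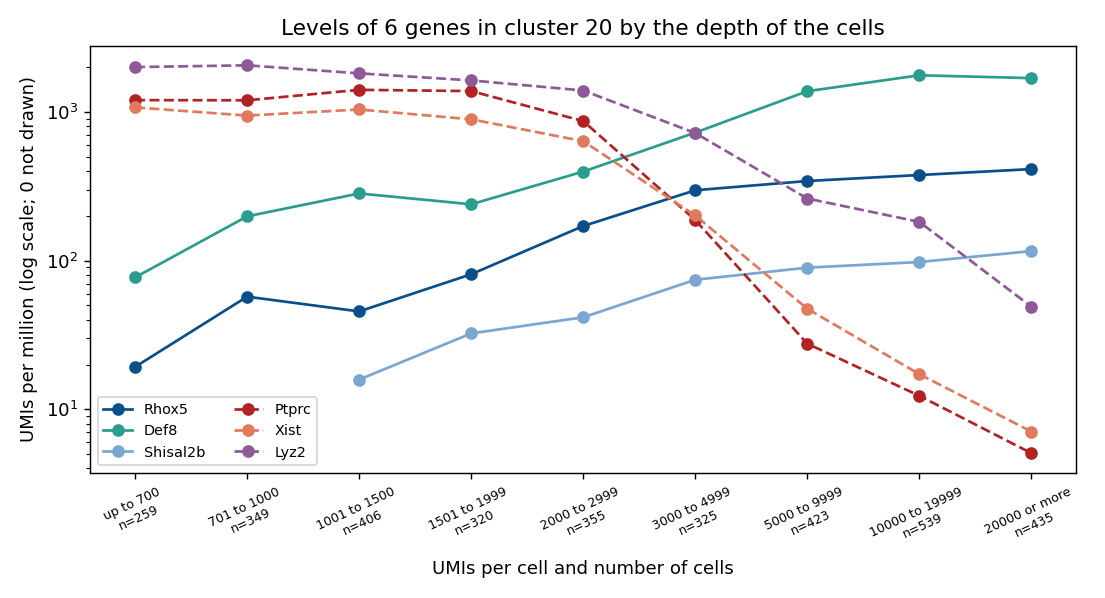
CPM (log scale) of 6 genes in cluster 20 cells of 9 ranges of UMIs per cell, with Rhox5, Def8 and Shisal2b as solid lines, Ptprc, Xist and Lyz2 as dashed lines, and levels of 0 not drawn. The solid lines run up to the right and the dashed lines run down, Ptprc from 1201 to 5.07 and Rhox5 from 19.3 to 413.

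Genes highest in shallow over deep cells included Slc8a1, Lrmda and Pde7b and, of genes known from leukocytes, Cd86, Dock2 and Ptprc. Ptprc was at 1336 CPM in shallow and 10.48 in deep cells, where macrophages had 471 and T and NK cells 1141. Dock2, a guanine exchange factor of leukocyte migration, was at 2098 against 16.4, Cd86, a costimulatory ligand, at 766 against 3.62, and Slc8a1, a sodium-calcium exchanger, at 1602 against 6.78. Highest in deep over shallow cells were Zfpm2, Kirrel3, Ppic and Serpinh1, the collagen chaperone, the last at 428 against 56.8. The summed level of the 9 macrophage markers was 382 CPM in deep cells, 3005 in the cells between both limits, 5890 in shallow cells and 17724 in macrophages, and its part in the results on all cells of cluster 20 was not tested.

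To compare cells at equal depth, each was thinned to 1000 UMIs, which leaves out the 607 shallow cells below that. The 20 leading genes were chosen on the summed counts of cluster 20, mostly those of deep cells, so the shares below are a description. A UMI of at least 1 of the 20 leading genes was found in 88.4% of deep cells (1235 of 1397, Wilson 95% interval 86.6–90.0), 42.8% of intermediate cells (291 of 680) and 14.99% of shallow cells (109 of 727, 12.6–17.8). The same share was 7.68% in cluster 22, 1.91% in macrophages and 1.37% in T and NK cells. A UMI of the 9 macrophage markers was found in 11.5% of deep, 46.2% of intermediate and 81.8% of shallow cells. The same share was 21.8% in cluster 22, 99.2% in macrophages and 71.4% in T and NK cells. The 9 markers include Ptprc, which T and NK cells also express, so this share does not single out macrophages. UMIs of both lists were found together in 8.38%, 7.21% and 5.36% of deep, intermediate and shallow cells. Unthinned, Rhox5 alone had a UMI in 93.8% of deep and 5.02% of shallow cells. Intervals cover counting error only.

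Of 15 marker lists of cell types, those of MC38 or epithelial cells, fibroblasts and macrophages had members at 50 CPM or above in cluster 20. Of the 10 markers listed for MC38 or epithelial cells, 2 reached 50 CPM, Shisal2b at 97.8 and Tm4sf1, a membrane protein of carcinoma and endothelial cells, at 133, while cluster 22 had 573 of Tm4sf1. Krt8, Krt18, Krt19 and Epcam, which mark epithelia, were at 0.443 or less, where cluster 25 had 1527, 1787, 3038 and 915. Of 12 fibroblast markers, 4 reached that level, namely Col3a1 (854), Dcn (501), Mmp2 (60.6) and Pdgfra (59.5), and 12 of 12 did in cluster 22, as did 8 of 8 pericyte and 8 of 8 endothelial markers. Col1a1 was at 9.52 and Col1a2 at 1.07 in cluster 20, against 3567 and 2091 in cluster 22, while Dcn and Pdgfra were at 541 and 62.8 in cluster 22, close to their levels in cluster 20. The list summed to 1510 in cluster 20 and 13357 in cluster 22. Of 9 macrophage markers, 6 reached 50, led by Lyz2 (285) and Apoe (213), and the list summed to 893.5, while in deep cells 3 of 9 did. None of 8 pericyte, 8 endothelial, 6 B and plasma cell and 6 T and NK cell markers reached 50, and those lists summed to 36.9, 35.1, 2.66 and 12.3. In cluster 25, 6 of 6 B and plasma cell markers did, with Igkc at 3211 and Cd79a at 644. With neither list of its label filled, the cells are called by their cluster number here. Lists of granulocyte, dendritic, mast, erythroid, keratinocyte, Schwann, adipocyte and skeletal muscle markers had 0 members at 50 or above.

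Side by side with cluster 22, deep cells had 45 genes at 8-fold or higher and 454 at least 8-fold lower among the 3979 genes that reached 50 CPM in either. Besides leading genes, 3830403N18Rik (88.7 against 0) and Klra4 (86.5 against 0), an NK cell receptor gene, were among the highest. Lower were Igfbp7 (0.170 against 4852), the pericyte gene Rgs5 (0.170 against 2927), Acta2, the smooth muscle actin (0.426 against 1429), Serping1, a complement inhibitor (0 against 930), and the matrix genes Col1a2, Mgp and Postn. Against cluster 25, 129 genes were at least 8-fold higher and 437 lower among 3922. Col3a1 (931), Gng11 (464) and Col6a2 (420) had 0 UMIs in cluster 25, and Col6a1 was at 469 against 1.15. Over all 27457 genes the profile of deep cells correlated best with cluster 15 (r = 0.906) and cluster 22 (r = 0.878), and that of shallow cells with cluster 19 (r = 0.976) and cluster 5 (r = 0.960), of which clusters 5, 15 and 19 belong to the macrophages. These values are across genes, which are no replicates, and all clusters share libraries.

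Host alleles gave a measure apart from the marker lists, though its genes were chosen by their level in other cells. As MC38 derives from B6 and was the same in every host, a transcript that only the Collaborative Cross genome yields is made by host cells and not by the line. Chosen in macrophages alone, at 8-fold or more over B6 hosts with no overlap of tumors, 15 genes gave 31 pairs of gene and strain. In deep cells their level was 3.11% of that in macrophages of the same strain at the median, and under 10% in 27 of 31 pairs. The median was 30.4% in shallow cells and 66.3% in cluster 22. As the genes were chosen for a high level in macrophages, other host cells can lie below that level too. With genes chosen in T and NK cells instead (25 genes, 36 pairs), the medians were 1.69% in deep cells, 9.92% in shallow cells and 49.4% in cluster 22, with 30 of 36 pairs under 10% in deep cells. At 4-fold in macrophages (24 genes, 42 pairs) they were 3.24%, 25.9% and 51.3%, with 31 of 42 pairs under 10%. Among the first 31 pairs, those above 10% included Ank2 in CC036 (95.5%) and CC075 (74.9%), a gene at 100 CPM in deep cells of B6 hosts too, and Ly6c1 in CC080 (11.4%).

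Gm10260 is an example of such a gene. It is a single-exon copy of the ribosomal protein gene Rps18, annotated on GRCm38 at chr13:97760072-97760632 on the minus strand, and Rps18 has 5 exons at chr17:33951999-33956001 on the minus strand. Their transcripts were 98.72% identical, with 7 differences in 547 aligned bases, which makes the split of reads between both genes, and so either count, uncertain. A stretch of 60 bases of each transcript with 2 of the differing bases, in capitals, is shown as an example of how the copies differ, and whether reads cover it was not tested.
Gm10260: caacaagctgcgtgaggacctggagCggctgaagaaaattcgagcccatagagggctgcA
Rps18: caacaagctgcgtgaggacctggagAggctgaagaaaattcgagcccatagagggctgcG
Gm10260 stood in CC079 hosts at 859 CPM in macrophages, 809 in cluster 22, 104 in shallow cells and 18.8 in deep cells. In CC080 hosts it was at 760, 529, 77.2 and 21.3, and in CC036 hosts at 672, 659, 132 and 14.6, in the same order. In CC007 hosts it was at 759 in macrophages and 838 in cluster 22, with 0 UMIs in shallow cells and 21.8 CPM in deep cells. In B6 hosts it was at 2.44 in macrophages and 1.93 in deep cells. Deep cells held 4855 CPM of Rps18 and macrophages 1541, values subject to the same split of reads.

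Other host genes were low in deep cells as well. Ftl1-ps1, a copy of the ferritin light chain gene Ftl1, with which it can share reads, was at 2186 CPM in macrophages of CC001 hosts, 458 in cluster 22, 467 in shallow cells and 37.5 in deep cells, and T and NK cells had 239. In CC080 hosts it was at 1228 in macrophages, 319 in cluster 22, 162 in T and NK cells, 46.3 in shallow cells (6 UMIs) and 39.5 in deep cells. Ifi202b, an interferon-inducible DNA sensor, was at 246 in macrophages, 184 in cluster 22 and 270 in shallow cells of CC080 hosts, and at 6.46 in deep cells (Poisson 95% interval 3.76–10.3), where T and NK cells had 36.5. In CC007 hosts H2-Q2 was at 212 in macrophages and 400 in cluster 22, and deep cells had 0 of 687876 UMIs, which allows up to 5.36 CPM. Xist is no host-allele gene of this kind, as B6 hosts made it too (347–556 CPM in macrophages of their tumors). It was at 15.8 in deep cells, 970 in shallow cells, 509 in macrophages and 532 in cluster 22.

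**Figure D3:**
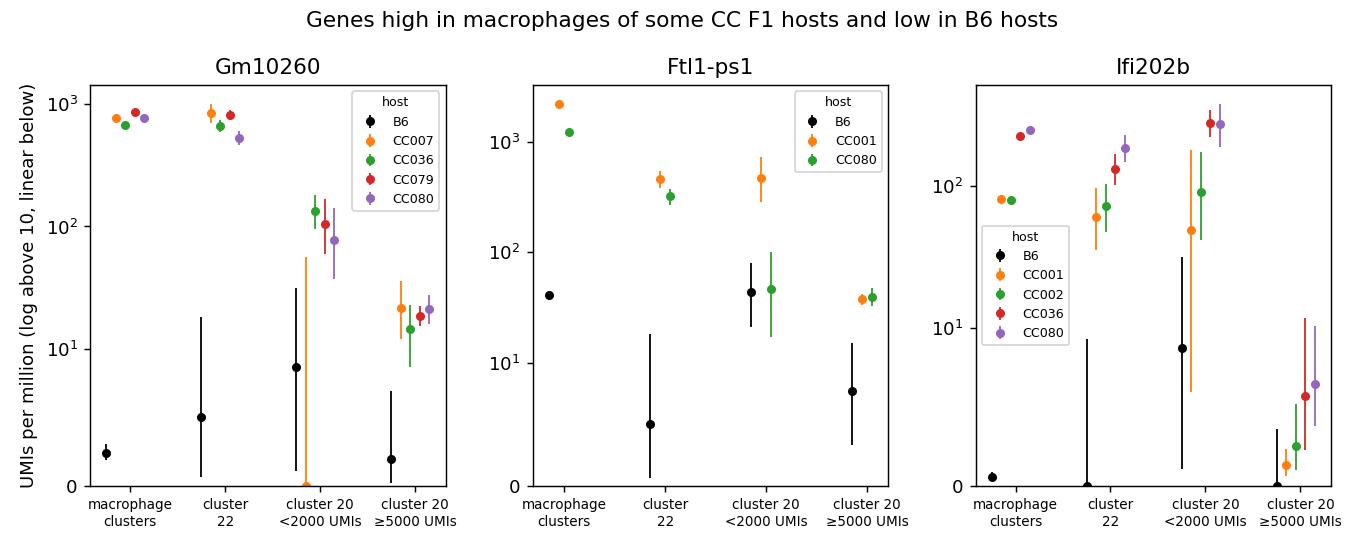
CPM (linear below 10, log above) of Gm10260, Ftl1-ps1 and Ifi202b in macrophages, cluster 22, shallow and deep cells of cluster 20, 1 point a host strain (B6 and the strains in which the gene marks the host allele), with 95% Poisson intervals of the counts. Deep cells sit far below macrophages in the Collaborative Cross hosts, as with Gm10260 in CC079 at 18.8 against 859.

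Genes that act on other cells and on growth were higher in deep cells in some cases and lower in others, and those named are a choice made after their values were seen. Among secreted factors, Mif, the macrophage migration inhibitory factor, was at 2820 CPM (cluster 22 725, macrophages 1216). Csf1, the macrophage growth factor, was at 142 (59.2 and 6.03), and Vegfa, the angiogenic factor, at 203 (29.8 and 143). Inhba, an activin subunit, was at 149 (17.3 and 27.7). Mmp9, a gelatinase, was at 114 (9.29 and 7.60). Lower in deep cells were Ccl2, a monocyte chemokine, at 164 (215 and 872), and Tgfb1, at 49.3 (178 and 354). Among cell cycle drivers, Ccnd1 was at 528 (181 and 194) and Cdk4, its kinase partner, at 290 (136 and 89.9), while Ccnd3 was at 16.2 (69.5 and 71.1). The glycolytic enzymes Pgk1 and Ldha were at 801 (188 and 404) and 1238 (484 and 707), and Aldoa at 958 (566 and 1075). By summed level of a list, 26 glycolysis and hypoxia genes reached 10120 in deep cells (4384 and 8070), 34 collagen and matrix genes 4456 (30625 and 2903), and 33 interferon gamma genes 1419 (6453 and 24114). The 22 MHC class I genes stood closer together, at 9040 (9493 and 10646). After thinning to 1000 UMIs, a UMI of the proliferation genes Mki67 or Top2a was found in 10.6% of deep, 10.0% of intermediate and 5.09% of shallow cells, and in 6.07% of cluster 22 and 8.0% of macrophages.

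As every tumor was sorted to 90% CD45+ and 10% CD45- cells, how much of a tumor cluster 20 took up could not be asked. What was compared is its share of the annotated cells of each tumor after the sort. It was 3.44% ± 1.93 (SD, n = 24; range 0.386–7.31, median 3.09) with aPD1 and 3.78% ± 2.09 (SD, n = 24; 0.0852–8.86, median 3.87) with isotype, a difference of −0.334 percentage points (permutation test with 100000 resamples, two-sided, p = 0.524; adjusted p = 0.973 over the 4 share tests made). The ranges overlapped almost wholly, and in the 24 pairs of a strain within a pool the share was higher with aPD1 in 14 and lower in 10. Among isotype tumors it was 4.26% ± 2.40 (SD, n = 10) in responder and 3.81% ± 2.04 (SD, n = 9) in non-responder strains (exact permutation test, two-sided, p = 0.669, adjusted p = 0.973). Among aPD1 tumors it was 3.49% ± 2.46 (SD, n = 10) and 3.43% ± 1.58 (SD, n = 9; exact permutation test, p = 0.9496, adjusted p = 0.973). None of these differences was larger than the spread between tumors. As each treatment also had its own hashtags, antibody and hashtag cannot be told apart.

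Counting deep cells alone, the share was 1.28% with aPD1 and 1.36% with isotype (permutation test, p = 0.861). By strain, the median share of all cluster 20 cells ran from 6.34% in CC075 (3.45–8.86) through 4.31% in CC079, 4.16% in CC036 (3.48–4.68), 3.32% in CC001, 3.10% in B6, 2.78% in CC002 and 2.72% in CC080 to 2.63% in CC007, and neighbours in this order overlapped. CC075 thus had the highest share and, at 5.47%, the fewest deep cells in it. The share of cycling cells, thinned as above, was 9.45% ± 3.96 (SD, n = 20) with aPD1 and 9.49% ± 4.84 (SD, n = 19) with isotype (permutation test, p = 0.973, adjusted p = 0.973).

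**Figure D4:**
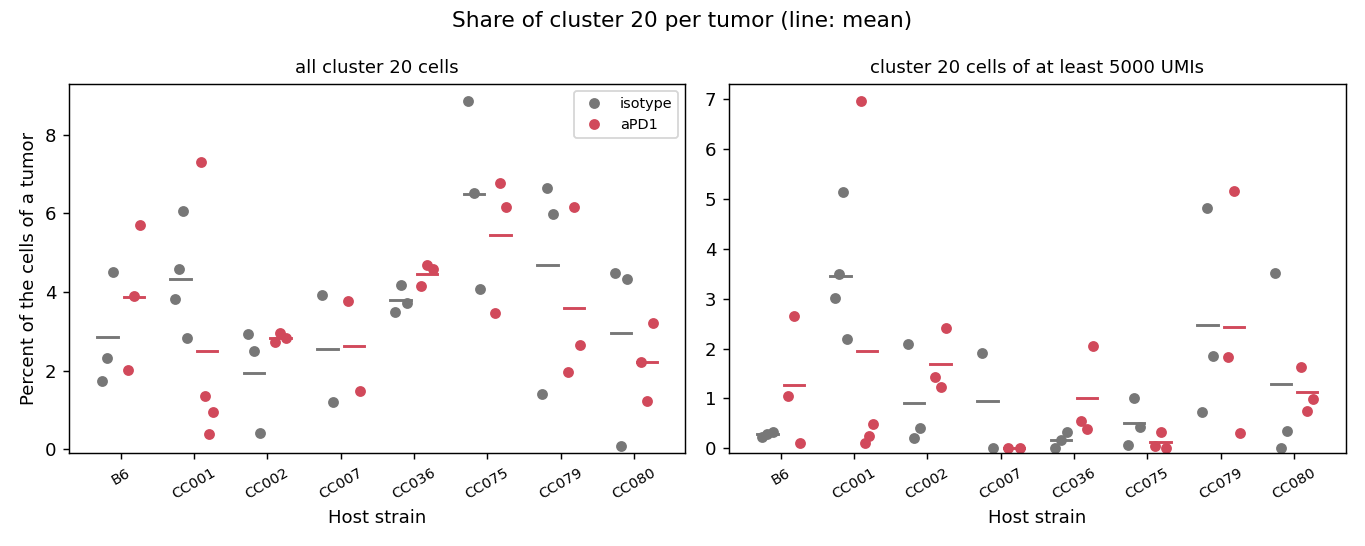
Share of all annotated cells of a tumor that were cluster 20 cells (left) and deep cluster 20 cells (right), in percent, by host strain, 1 point a tumor, grey for isotype and red for aPD1, with the mean of each treatment in a strain as a line. On the left grey and red points overlap in every strain, and CC075 is high on the left (median 6.34%) and low on the right (median 0.193%).

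For gene levels, counts were summed over the cells of a tumor and compared with edgeR. With aPD1 against isotype, over 41 tumors and with strain as a term, 0 of 4880 genes passed an adjusted p of 0.05 (0% called), and DESeq2 also called 0. An unadjusted p under 0.05 was found for 54 genes (1.11%). That share is below the one this limit gives when no gene differs, so 0 calls does not show that aPD1 had no effect. In the deep cells of 25 tumors 0 of 6421 passed (0% called; 207 with an unadjusted p under 0.05; DESeq2 0). Within responder strains 0 of 5773 genes passed (85 unadjusted; DESeq2 called 1, Ftl1), and within non-responder strains 0 of 4159 (83 unadjusted; DESeq2 0). Without a filter on low counts some genes passed within non-responder strains, as given further below. In deep cells the comparisons within responder and within non-responder strains had 0 of 6309 genes (281 unadjusted; DESeq2 0) and 0 of 7062 (157 unadjusted; DESeq2 called 2, described next). The difference between the effects of aPD1 in the 2 classes, as an interaction term, had 0 calls of 6927 genes (74 unadjusted; DESeq2 0), and 0 of 7558 in deep cells (255 unadjusted; DESeq2 called 1, Fcgr3, an Fc receptor gene of leukocytes). With each strain and pool as a block, 2 genes passed in deep cells of responder strains, Camk1d (edgeR adjusted p = 0.0251) and Cmss1 (adjusted p = 0.00819), both lower with aPD1. Genes behind these single calls were named after their values were seen.

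Some values in deep cells were large without passing. Shisal2b was at 67.3–102 CPM in the 5 aPD1 tumors of responder strains and at 89.1–241 in the 6 isotype tumors, a log2 difference of −0.90 ± 0.19 (SE; edgeR adjusted p = 0.575), and the ranges overlapped. In non-responder strains Zfp36, which encodes an mRNA-destabilizing protein induced by stress, had means of 7.45 with aPD1 and 46.8 with isotype, a log2 difference of −2.33 ± 0.40 (SE; edgeR adjusted p = 0.114). With each strain and pool as a block it passed at −2.45 (adjusted p = 0.0102), and with DESeq2 at −2.44 (adjusted p = 0.00469) together with the chaperone gene Hspa8.

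Gene lists held no call for aPD1 either. In deep cells over all strains 23 of 26 tested cell cycle genes were higher with aPD1 (median log2 difference 0.12), 21 of 24 glycolysis genes (0.11) and 4 of 18 collagen and matrix genes (−0.11), where the median of all genes was −0.01. Within responder strains 23 of 24 glycolysis genes were higher with a median of 0.35, 19 of 22 interferon gamma genes with 0.39, and 2 of 18 collagen and matrix genes with −0.27. In non-responder strains the same lists had 8 of 25 (−0.08), 12 of 22 (0.11) and 12 of 19 (0.06). Of cell cycle genes in deep cells 17 of 25 were higher in responder strains (0.20) and 17 of 28 in non-responder strains (0.08). Over all cells of cluster 20 these lists had other values. With all strains 14 of 21 cell cycle genes were higher (0.11), 13 of 23 glycolysis genes (0.01) and 4 of 19 collagen and matrix genes (−0.08). Within responder strains 12 of 24 glycolysis genes were higher, 20 of 23 interferon gamma genes (0.26) and 1 of 18 collagen and matrix genes (−0.47), and in non-responder strains 14 of 22 (0.06), 2 of 18 (−0.42) and 16 of 19 (0.44). Beside these values, the median Lyz2 over all cells was 225 CPM in the aPD1 and 943 in the isotype tumors of non-responder strains, and that of Ptprc 122 and 396, with overlapping ranges. In responder strains the medians were 330 and 561 for Lyz2 and 20.3 and 22.5 for Ptprc. Their part in the list values was not tested. The limit for deep cells was set after the values were seen. Signs within a list share tumors and are given as a description.

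Between the classes, 1 gene passed, and it belonged to antigen presentation. In the 35 tumors of classed strains, with treatment as a term, 1 of 5713 genes (0.0175%) passed, and in the deep cells of 22 of them 1 of 6336 (0.0158%), in both cases H2-Q7, the Qa class Ib gene. In deep cells H2-Q7 was at 110–359 CPM (median 185, n = 11) in non-responder and 291–423 (median 355, n = 11) in responder strains. The groups overlapped through the CC080 isotype tumor of pool 3 at 359, one of the tumors that share a mouse identifier, and the next non-responder tumor was at 251. The log2 difference was 0.71 ± 0.13 (SE; edgeR adjusted p = 0.0239) in deep cells and 0.79 ± 0.15 (SE; adjusted p = 0.0295) over all cells of cluster 20. With pools as blocks it was 0.65 (adjusted p = 0.975) in deep cells and 0.69 (adjusted p = 0.101) over all cells, and was not called. Without the 2 tumors that share a mouse identifier it was 0.87 over all cells (adjusted p = 0.00621) and 0.81 in deep cells (adjusted p = 0.000105), where H2-K1 also passed. Over all cells the call was lost with no filter on low counts (adjusted p = 0.483) and with tumors of at least 50 cells (adjusted p = 1.00). Of the pools that hold classed strains, leaving out any 1 other than pool 3 lost it too (adjusted p 0.0667–0.474). Pools 6 and 7 hold only B6 and CC007 hosts, so leaving them out removed no tumor from this test. Leaving out any 1 of pools 1, 2, 5, 11 and 12 lost the call in deep cells (adjusted p 0.0581–0.276), with the direction kept. Counts can be split with the near-identical H2-Q6, which makes the level of either uncertain.

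H2-Q7 is given by strain next, and strain and treatment were not weighed against each other. Over the deep cells of 25 tumors the test among strains did not call H2-Q7. Strain medians in deep cells were 366 in CC001, 339 in CC002 and 295 in CC075 (1 tumor), against 199 in CC079, 193 in CC036 (2 tumors) and 167 in CC080. The classless hosts were at 323 and 432 in the 2 B6 tumors and 260 in the CC007 tumor. Each class holds 3 strains and tumors of a strain share a genome, so an exact permutation of strains between classes could not go below p = 0.10. Macrophages of the same tumors had the same direction, at 66.5–153 (median 101, n = 17) in non-responder and 111–354 (median 190, n = 18) in responder strains, with a log2 difference of 1.00 ± 0.14 (SE; edgeR adjusted p = 9.35e-06), where 772 of 11457 genes passed (6.74%). Thinned to the totals of the deep cells, macrophages had 28 calls of 6468 genes (0.433%). Macrophages carry the alleles of the host, while reads were aligned to the B6 reference. The part of allele sequence in the macrophage levels of H2-Q7 was not tested. The interaction of class and treatment in deep cells was 0.51 ± 0.24 (SE; adjusted p = 1.00).

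Other class I genes were higher in responder strains without passing edgeR. H2-K1 in deep cells was at 926–1819 CPM (median 1176) in non-responder and 1493–2195 (median 1767) in responder strains, a log2 difference of 0.48 ± 0.09 (SE; edgeR adjusted p = 0.0552), and DESeq2 called it (adjusted p = 0.00366), as did edgeR without the tumors that share an identifier (0.56, adjusted p = 0.00347). H2-D1 differed by 0.37 ± 0.10 (SE; adjusted p = 0.670). B2m, the light chain of all class I molecules, was at 1377–2473 (median 1715) and 1994–2499 (median 2198). Tap1, a peptide transporter, was at 5.26–66.7 (median 33.5) and 39.5–72.8 (median 56.2). All of these ranges overlapped. Of 22 class I and peptide loading genes tested in deep cells 21 were higher in responder strains (median log2 difference 0.29), and 19 of 22 interferon gamma genes were (0.45, none called). The median of all genes was −0.00, while 3 of 8 type I interferon targets (−0.06) and 4 of 24 glycolysis genes were higher (−0.15). Over all cells type I interferon targets went the other way, with 9 of 10 higher (0.28). Class I (20 of 21), interferon gamma (20 of 25) and glycolysis genes (5 of 24) kept their direction there.

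The promoters of H2-K1 and H2-Q7 are shown because these genes had the smallest adjusted p in deep cells. They run from 250 bases before to 50 bases after the RefSeq start, on GRCm38.p6, at chr17:34000298-34000597 on the minus strand and chr17:35438905-35439204 on the plus strand. Capitals mark TTTCNNTT, a core of the interferon-stimulated response element, which was chosen after the sequences were read.
H2-K1: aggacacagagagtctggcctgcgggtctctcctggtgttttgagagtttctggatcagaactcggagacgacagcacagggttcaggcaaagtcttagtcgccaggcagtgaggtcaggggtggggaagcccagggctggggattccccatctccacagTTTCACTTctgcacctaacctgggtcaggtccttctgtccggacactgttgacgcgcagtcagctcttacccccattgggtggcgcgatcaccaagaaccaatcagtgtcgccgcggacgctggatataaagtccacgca
H2-Q7: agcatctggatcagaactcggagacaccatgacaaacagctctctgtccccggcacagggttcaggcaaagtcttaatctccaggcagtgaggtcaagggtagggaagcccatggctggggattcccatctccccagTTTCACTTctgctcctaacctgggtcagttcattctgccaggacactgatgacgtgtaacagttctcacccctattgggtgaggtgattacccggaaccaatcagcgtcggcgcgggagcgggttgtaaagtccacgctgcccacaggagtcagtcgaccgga
Each held 1 match, at base 161 and base 138 of the window, and 2 matches of CCAAT, searched on both strands. Of all 32851 RefSeq promoters of this length 7857 (23.9%) held TTTCNNTT and 12289 (37.4%) held CCAAT, so a match was common and is a description of these windows only. The sequences are those of the B6 reference, not of the strains crossed in.

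**Figure D5:**
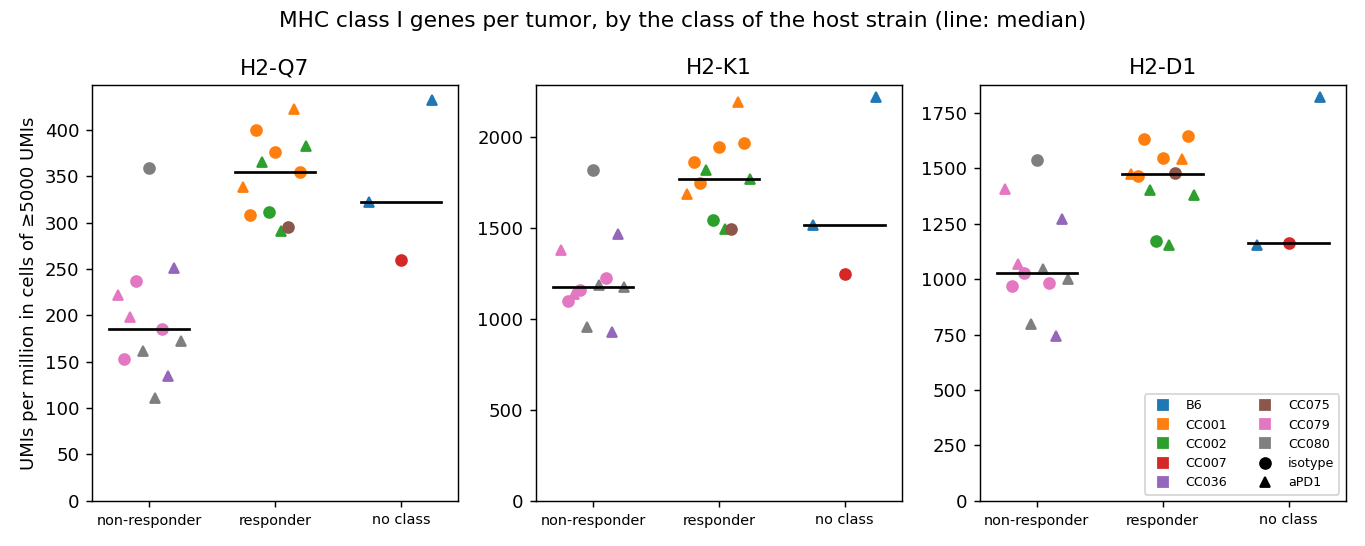
CPM of H2-Q7, H2-K1 and H2-D1 in the deep cells of each tumor with at least 10 of them, by response class (none for B6 and CC007), with colors for strains, circles for isotype, triangles for aPD1 and lines for class medians. H2-Q7 medians are 185 in non-responder and 355 in responder strains, with 1 non-responder tumor at 359 among the responder tumors.

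Between the 8 host strains, most calls over all cells of cluster 20 were absent from deep cells. In the deep cell test CC007 and CC075 had 1 tumor each and B6 and CC036 had 2 each, and over all cells CC007 had 1. All CC036 and CC075 tumors came from pools 8–11 and all CC079 tumors from pools 1, 2 and 5, so a term for pools also takes up strain differences. The count over all cells also fell when some single pools were left out, as given further below. Over all cells 3212 of 9160 genes (35.1%) passed a test of any strain difference, and in deep cells 1 of 9130 (0.011%; 653 with an unadjusted p under 0.05). DESeq2 called 4519 and 37. Macrophages of the same 41 tumors had 6653 of 13559 (49.1%), 1440 of 7946 (18.1%) when thinned to the totals of cluster 20, and 479 of 8831 (5.42%) when thinned to the totals of the deep cells in 25 tumors. At equal totals macrophages thus had fewer calls than all cells of cluster 20 and more than its deep cells, and cluster 22 had 16 of 4064 (0.394%) in 24 tumors. With pools 1–6 and 7–12 as a term the count over all cells was 4, namely Hal, Olfr1459 and Tpm3-rs7 (each edgeR adjusted p = 0.0141) and Ifi202b (adjusted p = 0.04).

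The 5 genes of smallest adjusted p over all cells were Hal and Zdhhc14 (both edgeR adjusted p = 9.44e-07), Olfr1459 and Tpm3-rs7 (both 2.33e-06) and Slco3a1 (2.57e-06). With pools 1–6 and 7–12 as a term Zdhhc14 (adjusted p = 0.135) and Slco3a1 (adjusted p = 0.165) were not called. Hal, histidine ammonia-lyase, was at 15.8–135 CPM in CC036 tumors (median 30.8) and had a median of 32.2 in CC075, against 9.92 or less in tumors of the other strains. In deep cells it was at 4.34 or less in every tumor. Olfr1459, an olfactory receptor gene, was at 7.37–127 (median 92.5) in CC036 and at most 1.77 elsewhere, and in deep cells at most 2.13. Tpm3-rs7, a tropomyosin copy that can share reads with Tpm3, was at 16.3–59.7 in CC075 and at most 12.3 elsewhere, and in deep cells at most 5.61. Slco3a1, an organic anion transporter, had medians of 275 in CC075 and 104 in CC036, and 8.69–13.7 in their deep cells. In macrophages of the same tumors Hal had a median of 75.7 in CC036 and 22.8 in CC075, but also 54.6 in CC001 and 45.1 in CC002. Olfr1459 had a macrophage median of 30.9 in CC036, Tpm3-rs7 of 86.1 in CC075, and Slco3a1 of 124 in CC075 and 59.2 in CC036. Macrophages of the CC007 tumor had Hal at 22.4, Olfr1459 at 18.3 and Tpm3-rs7 at 93.3. CC075 and CC036, where these genes were high, had the lowest shares of deep cells in cluster 20, at 5.47% and 15.8%.

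The call in deep cells was Meis2, a homeobox transcription factor gene (edgeR adjusted p = 0.0129). Its deep cell level was 107 CPM in both CC036 tumors and 143 in the CC075 tumor, and between 29.7 and 74.7 in the 22 tumors of the other strains, so these 3 tumors stood above all others. Macrophages had 0.903 or less in every tumor. The 3 tumors come from pools 8 and 10 and are all those of CC036 and CC075 with at least 10 deep cells, and the call was lost without any 1 of pools 1, 2, 3 and 10 (adjusted p 0.0517–0.210). Without the tumors that share an identifier 4 genes passed in deep cells, Meis2 (edgeR adjusted p = 0.00676), Dcun1d4 (0.00373), H2-Q7 (0.0135) and Ccl4 (0.0253). With all 25 tumors no member of any pathway list was called in deep cells. Over all cells, where 35.1% of all genes were called, so were 10 of 22 class I genes, 18 of 31 interferon gamma genes, 16 of 24 collagen and matrix genes, 9 of 24 glycolysis genes and 7 of 31 cell cycle genes. None of the 4 genes called with pools 1–6 and 7–12 as a term was a member of a list.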

How the data were processed

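Single-cell 5′ RNA-seq was deposited by the authors as a matrix of UMI counts per gene and cell with a table of pool, strain, treatment and cluster. Per the labels and the study's methods, reads were aligned with Cell Ranger to GRCm38 with the GENCODE vM23 annotation, and cells were filtered and clustered with Seurat 5.0.1. The counts are not normalised. Doublet removal is not given in the sources used here, and no doublet caller was run. Gene positions here come from a GENCODE annotation of another release on the same build.

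The replicate was the tumor (pool, strain and treatment). Mouse identifiers marked separate animals apart from the 2 CC080 tumors named in the report, and p-values measure the spread between these tumors. Macrophage clusters and T and NK cell clusters were grouped by their markers. CPM come from summed counts, and 5′ counting does not tie them to gene length. Folds add 1 CPM. Counts were summed over the cells of a tumor with at least 20 cells (at least 10 for deep cells) and tested with edgeR 4.0.16 (filterByExpr, TMM, quasi-likelihood F test, R 4.3.3), with Benjamini-Hochberg adjustment over all genes tested and a threshold of 0.05. DESeq2 1.42.0, other filters, blocks, batch terms and each pool left out were alternatives. Shares were compared by permutation tests (scipy 1.17.1). The fits were also run on simulated counts. These were drawn independently for each tumor, without the correlation within a library given next.

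Isotype and aPD1 tumors of a strain in a pool share a library by the labels. Deviations from group means correlated above 0.1 in 14 of 18 such pairs with 20 cells in both tumors (median r = 0.43). The main tests of gene levels had no term for these pairs. The test among strains was not run with a block, so it counts both tumors of a pair as separate.

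Named genes were the listed markers, the 20 leading genes, the 5 of smallest adjusted p per contrast and direction, called or abundant list members, host-allele genes and the largest folds against clusters 22 and 25. Class I genes other than H2-Q7, the genes of the depth ranges, Meis2, Shisal2b and Zfp36 as treatment values and genes behind single calls were picked after their values were seen. The members and lists were chosen with earlier results of these data known. The alternatives on deep and shallow cells, also those without the tumors that share an identifier, were chosen after seeing the data. The values of 1 host-allele gene are not reported here.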

Additional observations from a re-analysis of the deposited data

Results flagged for a closer look

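In 2 of the 15 groups of 4 to 10 tumors examined, 1 tumor lay far from the others by Dixon's criterion, which chance alone meets in about 1 group of 20. The isotype tumor of CC002 in pool 12 had 1 cluster 20 cell among 248, a share of 0.403%, where the other 5 CC002 tumors had between 2.50% and 2.96%. The isotype tumor of CC001 in pool 1 had a share of cycling cells in cluster 20, after thinning, of 17.1% (7 of 41 cells), where the other 5 CC001 tumors with a value had between 10.0% and 11.8%.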

How the results depend on the processing

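No difference in share or in cycling share passed its test under any alternative, so signs below carry no call. For aPD1 against isotype the share difference was −0.548 to −0.0368 percentage points with a pool or strain left out, −0.785 in pools 1–6 and 0.116 in pools 7–12 alone, 1.03 as a share of clusters 20, 22 and 25, and 0.00116 for shallow cells. Between classes among isotype tumors it was −0.510 to 1.44 with a pool or strain left out (−0.218 without pool 4, −0.0186 without pool 9, −0.510 without CC075) and −0.165 for shallow cells. Among aPD1 tumors it was −0.784 to 0.721 (−0.547 without pool 1, −0.00475 without pool 3, −0.161 without pool 10, −0.262 without pool 11, −0.784 without CC075, −0.542 without CC080), −0.120 in pools 7–12, −0.213 without the tumors that share an identifier, −0.26 on the log2 scale, −3.45 as a share of clusters 20, 22 and 25, and −0.195 for deep cells. The cycling difference was −0.442 to 0.650 with a pool left out (0.128, 0.151, 0.650, 0.145, 0.268 and 0.0520 without pools 1, 2, 6, 9, 11 and 12), 2.62 thinned to 2000 UMIs, 1.25 without thinning and 0.776 for deep cells thinned to 5000.

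Counts of genes called moved as follows, and the cause was not tested. For aPD1 the count over all cells was 1 without a filter (Creb3l1), 1 with DESeq2 in responder strains (Ftl1), and 38 without a filter in non-responder strains. In deep cells it was 2 with the replicate block in responder strains (Camk1d and Cmss1), and 2 with DESeq2 and 1 with the block in non-responder strains. Leaving out pools kept it at 0. Between classes over all cells it was 4 with DESeq2 (H2-Q7, H2-Q6, H2-K1 and B2m), 0 without a filter, 0 with tumors of at least 50 cells, 0 with pools as replicate block, and 0 to 1 with a pool left out. Of the pools that hold classed strains, the call on H2-Q7 was kept only without pool 3, and pools 6 and 7 add no tumor to this test. In deep cells the count between classes was 2 with DESeq2, 2 without the tumors that share an identifier (H2-Q7 and H2-K1), 0 with the block, and 0 to 2 with a pool left out. The interaction in deep cells had 1 call with DESeq2. Among strains the count over all cells was 2115 with tumors of at least 50 cells, 4 with pools 1–6 and 7–12 as a term, 1 in deep cells and 1303 to 3756 with a pool left out (1303 without pool 9, 2040 without pool 1). In deep cells it was 37 with DESeq2, 4 without the tumors that share an identifier and 0 to 19 with a pool left out (5 without pool 8 and 5 without pool 12). The replicate block changed no other call, and it was not run for the test among strains.

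Depth limits shallow cells most, at a median of 1071.5 UMIs, and few tumors of CC036 and CC075 had 10 deep cells.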

Other observations

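Some abundant genes of deep cells belong to no comparison above and were picked after their values were seen. The metallothionein genes Mt1 and Mt2, which bind zinc and copper, were at 3962 and 1076 CPM in deep cells, at 1157 and 281 in cluster 22 and at 745 and 52.7 in macrophages. The calcium-binding genes S100a4 and S100a6 were at 2488 and 11611 in deep cells, at 251 and 5530 in cluster 22 and at 1129 and 3191 in macrophages. Timp2, a metalloproteinase inhibitor, was at 512 (232 in cluster 22 and 101 in macrophages), and Htra1, a secreted serine protease, at 320 (138 and 1.09). Ccl5, a chemokine that draws T cells, was at 494 (37.2 and 401). Ifitm3, an interferon-induced antiviral gene, was at 695 in deep cells, 3787 in cluster 22 and 2056 in macrophages. Vim, the mesenchymal intermediate filament gene, was at 2888, 3305 and 2434.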
